A study of Mus musculus with 2 samples.

Results

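The 7 genes Saa3, Hp, Slpi, Ptx3, Camp, Lyz2 and Clu encode acute-phase and secreted antimicrobial proteins, and their transcripts were compared between untreated and lipopolysaccharide (LPS)-treated mouse macrophages. On the LPS array Saa3 was 58.8-fold higher, Hp at least 12.5-fold and Ptx3 at least 6.92-fold. Slpi was 1.46-fold higher and Clu differed little, both with signals close to the floor. Lyz2 differed little at a high signal, and Camp stayed under the floor on both arrays. The genes were chosen by name, with earlier results of these data known. Every probe set that the platform annotation assigns to exactly 1 gene was taken where that gene was one of the 7. This gave 11 probe sets, of 34945 with 1 gene in all, and the 7 genes are 7 of 18193.

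Both samples were macrophages that had been grown from bone marrow of C57BL6 mice in medium with serum and MCSF, the growth factor that turns marrow precursors into macrophages. One was the control and the other was treated with LPS, which macrophages sense through Toll-like receptor 4. The sources used here do not give the dose, the time, the number of mice or their age. Each condition has 1 Affymetrix Mouse Genome 430 2.0 array and no replicate, so no test can be made: all differences are between these 2 arrays, and their number limits the precision of every value.

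Acute-phase proteins are plasma and tissue proteins whose synthesis changes in inflammation. The liver makes most of them in response to interleukin-6, interleukin-1 and tumour necrosis factor, through STAT3, C/EBP and NF-kB transcription factors, and macrophages make some of them locally. Secreted antimicrobial proteins attack microbes directly, restrain proteases released by phagocytes, or mark particles for uptake.

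A signal is the MAS5 intensity deposited for a probe set, in linear units, and signals of different probe sets do not compare transcript amounts. Each array's median signal over non-control probe sets was used as its floor, at 35.1 for the control and 26.7 for LPS. A gene was called measured if it reached the floor on at least 1 array, as 11722 genes and 6 of the 7 members did. A signal under its floor was raised to the floor before a ratio was taken, and the fold is then written as at least N-fold. Folds are LPS over control as deposited, and the median over measured genes was -0.42 on the log2 scale, so a gene with equal signals lies above that median. The macrophage markers Csf1r and Adgre1 gave 9710 and 6967 in the untreated sample and 7724 and 7338 after LPS, and all 10 listed macrophage markers were measured.

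RefSeq promoter sequences (GRCm38.p6) were given for 5 of the 7 members, all but Hp and Clu. They are shown for the higher genes Saa3 and Ptx3, for Slpi, which holds the same kind of match, and for Lyz2 as a gene of nearly equal signals. Each runs 5′ to 3′ from 250 to 41 bases before the annotated start, and capitals mark a match to the C/EBP motif TTGCNNAA on either strand.
Saa3, chr7:46715717-46715926, minus strand: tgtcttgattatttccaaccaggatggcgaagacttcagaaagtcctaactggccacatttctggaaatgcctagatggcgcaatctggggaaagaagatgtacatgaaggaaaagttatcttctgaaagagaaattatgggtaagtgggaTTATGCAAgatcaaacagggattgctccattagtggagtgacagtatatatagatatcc
Ptx3, chr3:66219637-66219846, plus strand: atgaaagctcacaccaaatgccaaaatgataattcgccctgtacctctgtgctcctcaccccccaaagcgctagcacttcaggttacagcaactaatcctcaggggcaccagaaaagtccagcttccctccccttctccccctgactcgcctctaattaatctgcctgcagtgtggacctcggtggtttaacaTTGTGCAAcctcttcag
Slpi, chr2:164356548-164356757, minus strand: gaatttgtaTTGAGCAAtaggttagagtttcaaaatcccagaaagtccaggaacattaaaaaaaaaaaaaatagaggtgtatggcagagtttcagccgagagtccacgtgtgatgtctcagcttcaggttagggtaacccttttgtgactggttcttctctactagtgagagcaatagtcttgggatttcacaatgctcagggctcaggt
Lyz2, chr10:117282313-117282522, minus strand: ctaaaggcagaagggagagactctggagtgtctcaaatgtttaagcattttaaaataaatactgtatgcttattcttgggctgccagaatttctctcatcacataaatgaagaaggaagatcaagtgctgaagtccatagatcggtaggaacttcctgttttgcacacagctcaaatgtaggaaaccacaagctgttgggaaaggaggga
The C/EBP matches lie 99 to 92 bases before the start in Saa3, 57 to 50 in Ptx3 and 241 to 234 in Slpi, each on the reverse strand. They do not overlap with another motif that was searched. Over the full windows of 250 bases before to 50 after the start, this motif was present in 10.8% of 32851 promoters. A kB motif, the binding sequence of NF-kB, was matched in Ptx3 alone, by GGGGAACTCC and the overlapping GGGAACTCCC at the annotated start, and 4.51% of promoters hold one. The AP-1 motif TGANTCA, the STAT motif TTCNNNGAA and the TATA motif TATAAA, in 7.81%, 8.3% and 13.6% of promoters, were found in none of the 5 windows, and Camp and Lyz2 held none of the 5 motifs. A match is a description of letters in this window and not a measured binding site.

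Of the 7 members, 3 were higher after LPS by 2-fold or more and 0 lower, against 8.22% of measured genes that were higher and 26.2% that were lower. Hp and Ptx3 counted as measured through the LPS array alone. After centring on the median gene the same 3 passed and 0 were lower, against 13.1% and 15.3% of genes. At 3-fold the same 3 were higher, against 5.22% of genes. The members were chosen with earlier results of these data known, so these counts describe them and test nothing. The plot of member signals shows all 11 probe sets.

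**Figure D1:**
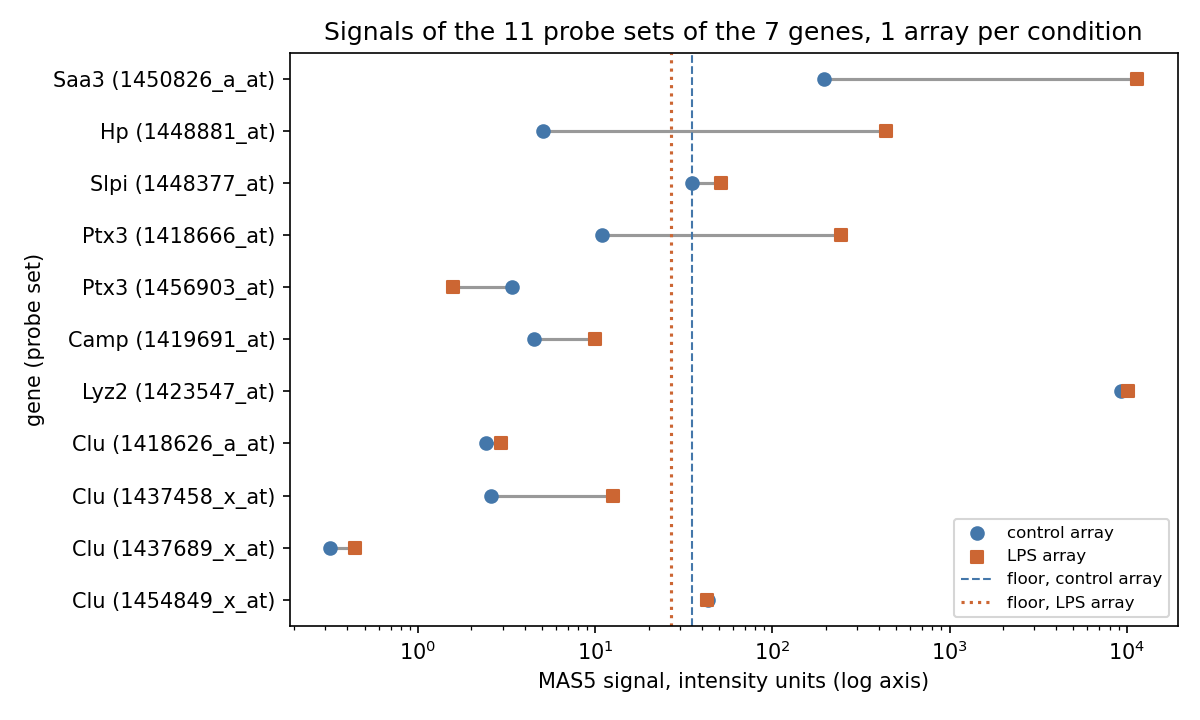
MAS5 signals (log axis, intensity units) of the 11 probe sets of the 7 genes on the control array (circles) and the LPS array (squares), with each array's floor as a vertical line. Saa3 runs from 194 to 11440, Hp and 1 Ptx3 probe set cross the floor, and all other pairs of points lie close together or left of the floor.

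Saa3 belongs to the acute-phase proteins, as the serum amyloid A isoform made mainly outside the liver, by macrophages and adipose tissue among others. Its only probe set, 1450826_a_at, gave 194 in the untreated sample and 11440 after LPS. The control signal was already above the floor, so the difference of 58.8-fold (5.88 on the log2 scale) is a ratio and not a bound. It ranked 29th by ratio among 11722 measured genes, with signals under a floor taken at the floor, and the LPS signal stood at percentile 99.95 of that array's probe sets.

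Hp encodes haptoglobin, an acute-phase protein that captures free haemoglobin and is also stored in granules of neutrophils. Probe set 1448881_at gave 5.09 in the untreated sample, far under the floor, and 439 after LPS. Hp was therefore at least 12.5-fold higher, a bound that moves with the floor: on the log2 scale it is 3.65 here, 2.27 for a 65th percentile floor and 4.71 for a 35th percentile floor.

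Ptx3 encodes the long pentraxin PTX3, a soluble pattern recognition molecule that binds complement C1q and microbes and that myeloid and stromal cells secrete when stimulated. Probe set 1418666_at gave 10.9 in the untreated sample, under the floor, and 243 after LPS, at least 6.92-fold more (2.79 on the log2 scale). The bound on the log2 scale is 1.42 for a 65th percentile floor and 3.86 for a 35th percentile floor. The other probe set, 1456903_at, gave 3.38 and 1.58, under both floors, so the higher value rests on 1 of 2 probe sets.

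Slpi encodes secretory leukocyte protease inhibitor, which blocks neutrophil elastase and is known as a brake on LPS responses in macrophages. Probe set 1448377_at gave 35.1 in the untreated sample, right at the floor, and 51.1 after LPS, 1.46-fold higher (0.54 on the log2 scale). Its place relative to the 2-fold line was not settled: the log2 ratio was 0.97 after median centring, 1.03 after quantile normalization and 1.005 after loess, and under a 65th percentile floor the gene was not measured. Both signals lay close to the floor.

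Camp encodes the only mouse cathelicidin, an antimicrobial peptide precursor of neutrophil granules. Probe set 1419691_at gave 4.49 in the untreated sample and 9.95 after LPS, both under the floor, so no fold is given. A level of Camp was not detectable above the floor by this probe set in either condition, which does not show that the transcript was absent.

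Lyz2 encodes lysozyme M, the enzyme that cleaves bacterial cell walls and a standard marker of macrophages and granulocytes. Probe set 1423547_at gave 9291 in the untreated sample and 10116 after LPS, a ratio of 1.09 (0.12 on the log2 scale). These stood at percentiles 99.81 and 99.87 of their arrays, where the highest signals were 14444 and 14015. Among measured genes 24.3% had a ratio at least as high. Over the 11 settings that were run the log2 ratio ranged from 0.04 with loess to 0.55 after median centring, under 2-fold in each. Other floors and choices of probe set left it at 0.12, since both signals lie far above the floors. Median centring and the scalings to control RNAs shift all genes alike, so these settings do not test its sign.

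Clu encodes clusterin, an extracellular chaperone that binds misfolded proteins and cell debris and restrains the terminal complement complex. It has 4 probe sets, of which only 1454849_x_at reached a floor, at 43.5 in the untreated sample and 42.8 after LPS. The names of such probe sets end in x where some probes may also bind other transcripts. The log2 ratio was -0.03, and it turned positive after quantile normalization, median centring, loess and both scalings to control RNAs, up to 0.47. The other 3 probe sets had signals of 2.43 and 2.96 (1418626_a_at), 2.57 and 12.5 (1437458_x_at), and 0.32 and 0.44 (1437689_x_at), all under the floor.

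**Figure D2:**
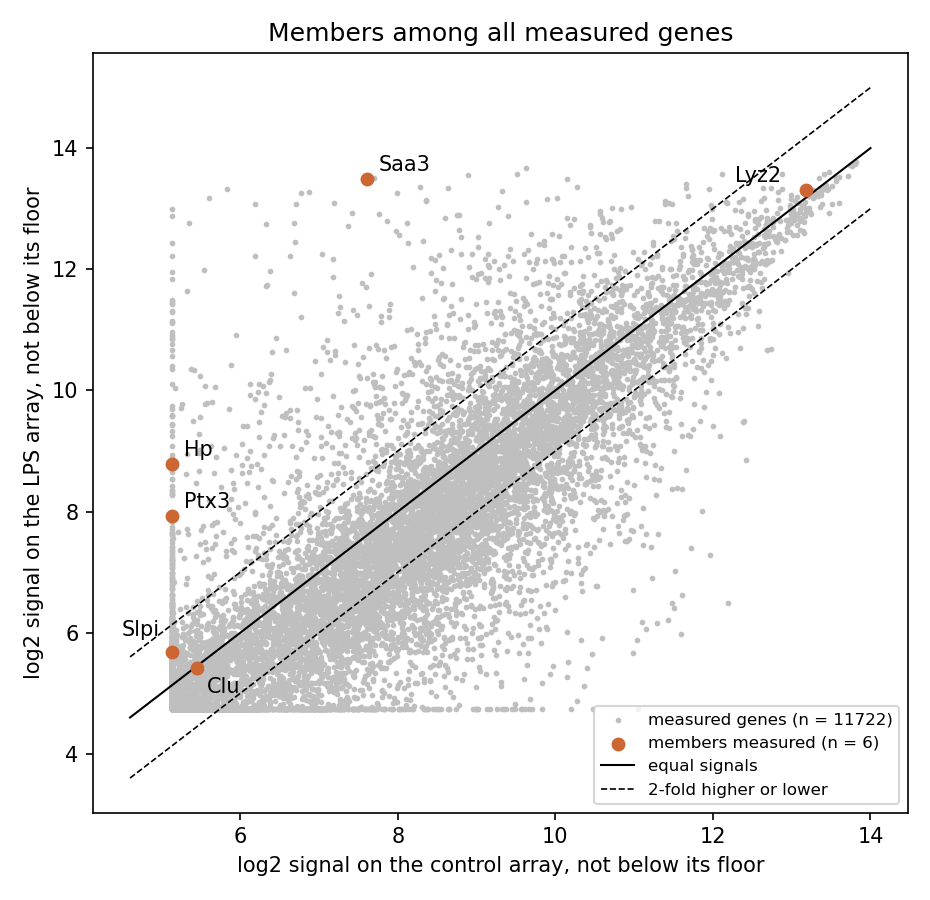
Each point is a measured gene, with the log2 signal on the control array (x) and on the LPS array (y), no value being drawn below the array's floor; members are coloured and named, and dashed lines mark 2-fold. Saa3 lies far above the line of equal signals, Hp and Ptx3 stand on the control floor at left, Lyz2 lies near the line at the bright end and Slpi and Clu near it at the dim end.

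Relatives of the members were read by the probe sets annotated to them, although related genes can share probe sequence. The serum amyloid A relatives of Saa3 stayed near the floor: the brighter of the Saa1 probe sets had signals of 12.8 and 31.8 and that of Saa4 20.1 and 32.6, each under the control floor and just above the LPS floor, and Saa2 had 22.7 and 21.8, under both. Lyz1, the neighbouring lysozyme gene of closely similar product, had signals of 8551 and 9364 by its brightest probe set, 1436996_x_at, a ratio of 1.10. Its other 2 probe sets gave 3354 and 6319 (1439426_x_at, 0.91 on the log2 scale) and only 71.7 and 85.5 (1450822_at, 0.25). The level of Lyz1 thus differed widely by probe set, and Lyz1 and Lyz2 transcripts may not be told apart by these probes.

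Relatives of Slpi with the same whey-acidic-protein fold differed from it in size. Wfdc21 went from 22.0, under the floor, to 147, at least 4.19-fold higher, while Wfdc17 was at 6544 and 8115, a ratio of 1.24. Among pentraxins, Nptx1, known from neurons, gave 93.1 and 48.2, for a log2 ratio of -0.95, which stays short of 2-fold. Over the whole list of relatives, 6 of 13 genes with a probe set were measured. Of these, 1 was higher and 0 lower, against 8.22% and 26.2% of all measured genes. The median log2 ratio was 0.01, beside -0.42 for all measured genes.

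Other serum acute-phase genes were mostly under the floor in these cells, with a few exceptions. Of 21 with a probe set, 6 were measured. Of these, 2 were higher and 0 lower, against 8.22% and 26.2% of all measured genes. After median centring 3 were higher, Hamp being the third, against 13.1% of genes. The median log2 ratio was 0.35, beside -0.42 for all measured genes. Saa1 and Saa4 enter this median slightly below 0 because the control floor is the higher one, although their signals were higher on the LPS array. Cp, the gene for the copper-carrying ferroxidase ceruloplasmin, went from 40.0 to 3186, 79.7-fold higher, and 7 of its 8 probe sets were measured, from 0.46 to 6.32 on the log2 scale. Cfb, the gene for complement factor B, was at least 31.5-fold higher. Hamp, the gene for the iron hormone hepcidin, had signals of 44.9 and 78.7, a ratio of 1.75. Lbp, the gene for the LPS-binding protein, gave 36.5 in the untreated sample and 14.2, under the floor, after LPS. Orm1, Orm2 and Orm3, the genes for the acute-phase orosomucoids, gave at most 2.59 on either array, under both floors, and are named here after their values were seen.

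Other antimicrobial protein genes were divided. Of 21 with a probe set, 11 were measured. Of these, 2 were higher and 2 lower, against 8.22% and 26.2% of all measured genes. Centring on the median gene made it 4 and 2, against 13.1% and 15.3% of genes. The median log2 ratio was 0.13, beside -0.42. Lcn2, the siderophore-binding lipocalin gene, went from 20.8, under the floor, to 5540, at least 158-fold higher, and the other higher gene was Wfdc21. Ang and Rnase4, a pair of secreted ribonuclease genes, went the other way, from 1655 to 526 (3.15-fold lower) and from 4595 to 1481 (3.10-fold lower). S100a8, a subunit of the metal-binding protein calprotectin, had signals of 270 and 440, a ratio of 1.63.

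**Figure D3:**
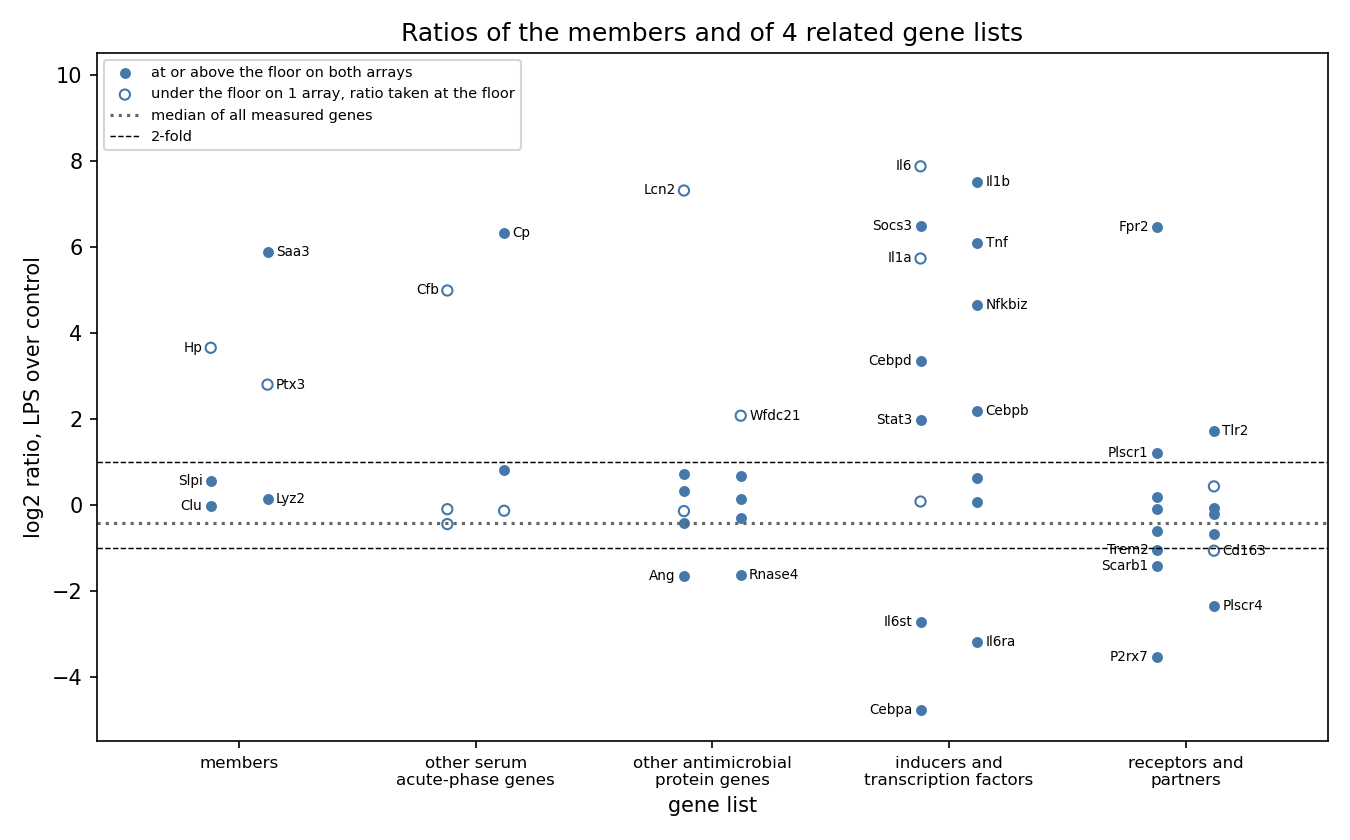
Log2 ratios (LPS over control) of measured genes among the members and 4 related lists; filled points reached the floor on both arrays, open points on 1, the dotted line is the median of all measured genes and dashed lines mark 2-fold. Saa3, Hp and Ptx3 lie above the upper line, Lcn2, Cp and Cfb stand highest in the lists beside them, and the inducers hold both Il6 near the top and Cebpa at the bottom.

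Inducers and transcription factors of the acute-phase response included genes that were higher and genes that were lower. Of 17 inducers and transcription factors with a probe set, 15 were measured. Of these, 9 were higher and 3 lower, against 8.22% and 26.2% of all measured genes. Centring on the median gene made it 10 and 3, against 13.1% and 15.3% of genes. The median log2 ratio was 2.17, beside -0.42. Il6 had signals of 0.81, under the floor, and 8178, at least 233-fold higher, and Il1b was 180-fold, Tnf 68.3-fold and Il1a at least 52.8-fold higher. Osm and Lif, cytokines of the interleukin-6 family, gave 106 and 31.9 (under the floor) in the untreated sample and 111 and 36.9 after LPS, and are named after their values were seen. Socs3, the feedback inhibitor that STAT3 induces, was 89.3-fold higher. Cebpa, a C/EBP factor of myeloid differentiation, went from 817 to 30.0, 27.2-fold lower.

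The C/EBP factor genes differed in direction. Cebpb and Cebpd, the pair of C/EBP genes best known for acute-phase control, went from 1824 to 8200 (4.50-fold higher) and from 517 to 5261 (10.2-fold higher by the brighter of 2 probe sets, which were at 1.36 and 3.35 on the log2 scale). Il6ra, the interleukin-6 receptor gene, went from 994 to 109, 9.09-fold lower, and Il6st, the gene for the shared signalling chain gp130, from 577 to 87.1, 6.62-fold lower with 4 probe sets from -3.86 to -1.25 on the log2 scale. From the same list, Stat3 went from 725 to 2838 (3.91-fold higher) and Nfkbiz from 279 to 6924 (24.9-fold higher). All genes of this paragraph are named after their values were seen.

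Receptors and partners of the members showed no common direction. Of 17 with a probe set, 15 were measured. Of these, 3 were higher and 5 lower, against 8.22% and 26.2% of all measured genes. Centring on the median gene made it 3 and 3, against 13.1% and 15.3% of genes. The median log2 ratio was -0.22, beside -0.42. Fpr2, the formyl peptide receptor known to bind serum amyloid A and cathelicidin peptides, went from 46.4 to 4072, 87.8-fold higher, and Tlr2, also reported to sense serum amyloid A, was 3.28-fold higher. Scarb1, a scavenger receptor that takes up serum amyloid A, was 2.68-fold lower. P2rx7, an ATP receptor linked to cathelicidin action, was 11.6-fold lower, with 3 probe sets that ranged from -3.53 to -1.29 on the log2 scale. Plscr4, a membrane protein reported to bind SLPI, was 5.10-fold lower, whereas Plscr1, also reported to bind SLPI and named after its values were seen, went from 345 to 792, 2.29-fold higher.

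For single members the partner genes ran as follows, named after their values were seen. Cd163, the scavenger receptor for haptoglobin-haemoglobin complexes, went from 56.1 to 15.9, under the floor, at least 2.10-fold lower, while its ligand gene Hp was higher. C1qa, C1qb and C1qc, whose product binds PTX3, gave 4992, 8345 and 8344 in the untreated sample and 4710, 7779 and 7176 after LPS, log2 ratios of -0.08, -0.10 and -0.22. Trem2, a microglial and macrophage receptor that binds clusterin, went from 5446 to 2626, 2.07-fold lower. After median centring Cd163 and Trem2 lie within 2-fold.

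For likeness of pattern, the measured gene closest to each higher member was found by the distance between log2 signals on the 2 arrays, raised to the floor where lower. Nearest to Saa3 was Cxcl10, an interferon-induced chemokine gene, with signals of 208 and 11652, at a distance of 0.10. Nearest to Hp was Gfi1, a transcriptional repressor gene, with 5.26 and 440, and nearest to Ptx3 was Nr4a3, an orphan nuclear receptor gene, with 2.61 and 242. Over 2 arrays such closeness is a description alone, and for Hp and Ptx3 it rests on the LPS signal, since both genes of each pair lie under the control floor.

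Several members are also made by other cells, so markers of those cells were read on the same arrays. In bulk samples, fewer cells of a type and less RNA per cell cannot be told apart. Of 13 markers of neutrophils and their precursors with a probe set, 8 were measured, 1 was higher (Csf3r, 2.18-fold) and 1 lower (Mmp8, 2.38-fold). The signals of all 13 summed to 1437 in the untreated sample and 1985 after LPS. Within these sums Csf3r alone went from 436 to 951, and Mmp8 from 435 to 183. The granule genes Mpo, Elane, Ctsg and Prtn3 and the receptor gene Cxcr2 were under both floors. Of 8 fibroblast markers 2 were measured, and the 8 together summed to 135 and 282. The rise of this sum is that of Pdgfrb alone, which went from 3.97, under the floor, to 170, at least 4.85-fold higher. Col1a2 had signals of 36.8 and 41.9, and Col1a1, Col3a1, Dcn, Lum, Pdgfra and Cxcl12 were under both floors. Of 6 hepatocyte markers 1 was measured, and the 6 together summed to 101 and 90.8. Alb, Ttr, Apoa1, Tat and Cps1 were under both floors. The part of the measured markers in the values of Hp, Ptx3 and Slpi was not tested.

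**Figure D4:**
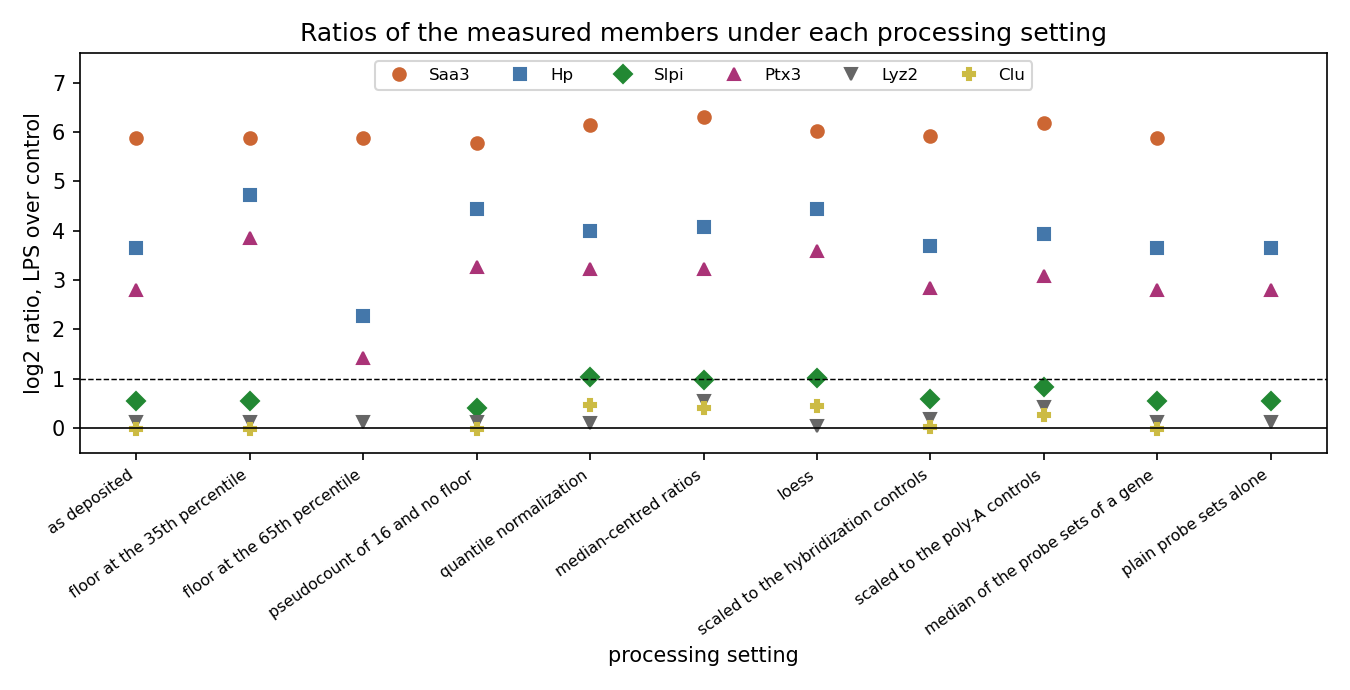
Log2 ratios (LPS over control) of the 6 measured members under the deposited scale and 10 alternative settings, with the 2-fold line dashed; a missing point means that the gene was not measured there or has no such probe set. Saa3, Hp and Ptx3 lie above the dashed line wherever they are shown, Slpi crosses it with quantile normalization and loess, and Lyz2 and Clu stay below it.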

How the data were processed

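The 2 arrays were grouped by their titles. Per the submitters' processing notes the authors made the deposited intensity values with MAS5, which weighs perfect-match probes against their mismatch partners. The sources used here do not give its version, scaling or detection calls. Of 45037 non-control probe sets, 34945 had 1 gene in the platform annotation, 932 several and 9160 were not listed with one. No build is named, so coordinates come from the RefSeq promoter table alone.

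A gene was read by its brightest probe set (mean log2 signal), floors were each array's median, and called means at least 2-fold. Named were the members, from each list up to 5 genes of largest ratio and the 1 most opposed to the list's median, all measured relatives, 2 macrophage markers, and the nearest gene of each higher member. Marker genes other than those 2 are named after their values were seen. The members and lists were chosen with earlier results of these data known. Alternatives were other floors (35th and 65th percentile), a pseudocount of 16, quantile normalization, median centring, loess (span 0.4), 2 scalings to control RNAs, other choices of probe set, and thresholds of 3-fold and 1.5-fold. The steps were tested on simulated data (Python 3.11.15, pandas 2.3.3, statsmodels 0.14.6).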

Additional observations from a re-analysis of the deposited data

How the results depend on the processing

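No paired analysis was possible because each condition has 1 array. Saa3, Hp and Ptx3 were at least 2-fold higher under each alternative in which they had a value, with log2 ratios of 5.77 to 6.30, 2.27 to 4.71 and 1.42 to 3.86, and no ratio of a member past 2-fold reversed. Of 56 alternative values of member ratios, 26 moved by more than 0.28, the median SD of log2 ratios among probe sets of a gene over 4494 genes, which is a technical gauge and not a replicate error. The number of members higher was 3, but 4 with quantile normalization and with loess (Slpi) and 2 with plain probe sets alone, where Saa3 has none. The number lower was 0 throughout. Scaling used 18 hybridization and 27 poly-A control probe sets, with shifts of -0.05 and -0.29.

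Of 170 alternative values of the lists, 30 moved, and the cause was not tested beyond what the settings themselves do. With the floor at the 65th percentile the median was 3.61 for serum acute-phase genes and 2.76 for inducers, 1 antimicrobial gene was higher, and 0 relatives of the members were. With the floor at the 35th percentile 1 serum acute-phase gene was lower. With the pseudocount the median was 0.69 for serum genes and 0.37 for relatives. Quantile normalization gave a serum median of 0.83 and 4 higher antimicrobial genes, and loess 0.84 and 4. Median centring gave medians of 0.77 (serum), 0.55 (antimicrobial), 2.59 (inducers), 0.21 (receptors and partners) and 0.44 (relatives), with 4 higher antimicrobial genes and 3 lower receptors and partners. Scaling to the poly-A controls gave 0.64, 0.42, 2.46, 0.074 and 0.30, with 3 lower receptors and partners. Plain probe sets alone left 1 higher antimicrobial gene, a median of -0.15 there and 3 lower receptors and partners. At 3-fold 2 receptors and partners were lower, and at 1.5-fold 4 antimicrobial genes were higher and 1 relative lower.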

Other observations

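The 2 nearest protein-coding genes on each side of each member, in the RefSeq order of GRCm38.p6, were read after the members' values were seen. Of 27 such neighbours with a probe set, 17 were measured, 1 was at least 2-fold higher and 2 were lower. Over all measured genes the shares were 8.22% higher and 26.2% lower. The higher neighbour was Cdc25a, a cell cycle phosphatase gene beside Camp, 2.08-fold from 70.2 to 146. The lower ones were Dhodh beside Hp, 2.38-fold, and Rsrc1 near Ptx3, 2.44-fold. Of the neighbours of Saa3, Tph1 was under both floors, and the measured Saal1, Saa4 and Saa1 were not called at 2-fold. Saa4 and Saa1 were under the control floor, so their ratios taken at the floor do not settle whether they passed 2-fold. Saal1 had signals of 146 and 134.

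Markers of other cells were mostly under the floor. Each sum given here is over all markers of a type with a probe set, measured or not. Of the dendritic cell markers 3 of 6 were measured and none passed 2-fold, with summed signals of 143 and 171 and Flt3, Xcr1 and Siglech under both floors. Of the B cell markers 2 of 6 were measured and 1 was lower (Cd79b, 3.11-fold), with sums of 221 and 115. For T and NK cells 1 of 6 was measured, with sums of 126 and 104, and for mast cells and basophils 1 of 7, with sums of 98.4 and 134. Of 10 macrophage markers 1 was at least 2-fold higher (Fcgr1, 4.02-fold) and 0 lower, with sums of 58532 and 52947.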
